A study of Mus musculus with 7 samples.

Results

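The hairpins of miR-183, miR-96 and miR-182 form a cluster of 3 microRNA (miRNA) genes that lie close together on mouse chromosome 6. Its members here are the table entries of the hairpins mir-183, mir-96 and mir-182, both arms of each, which gave 6 of the 1915 mature miRNAs in the deposited count table: mmu-miR-183-5p, mmu-miR-183-3p, mmu-miR-96-5p, mmu-miR-96-3p, mmu-miR-182-5p and mmu-miR-182-3p. The table holds read counts from small RNA sequencing of colorectum, from female C57BL/6 mice of wild-type genotype, given as 7 weeks old. The 3 CRC mice (M4, M5 and M6; CRC stands for colorectal cancer) had been injected with the colon carcinogen azoxymethane (AOM), 10 mg/kg, and from 5 days later drank 2.5% dextran sodium sulfate (DSS), an agent that damages the epithelium of the colon, for 7 days, then water for 14 days. The labels describe this schedule as given 3 times and call the mice stage T1 at day 17, but do not make plain which event that day is counted from. Given 3 times in full, the schedule lasts longer than 7 weeks, so the age given cannot be the age at its end. The 3 healthy mice (M1, M2 and M3) had received 0.9% saline. No group received AOM alone or DSS alone, so effects of the carcinogen, of DSS and of tumours cannot be told apart. The labels list 2 libraries for M1 and the table has 1 column of that name, which was used as 1 mouse.

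The cluster is transcribed as 1 precursor and cut into separate hairpins, each of which yields a 5p and a 3p strand. As a rule 1 strand is loaded into an Argonaute protein, where its seed, bases 2 to 8, pairs with messenger RNAs and represses them, and the other strand is degraded. The cluster is best known from sensory cells: mutations in the seed of miR-96 cause hearing loss in humans and mice. It is also known for high levels in many carcinomas, human colorectal cancer among them, where miR-96 and miR-182 repress the transcription factor FOXO1, and miR-182 is induced in activated helper T cells of mice.

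The mature 5p sequences are printed because they show how closely the members are related, with the seed in capitals.
miR-183-5p: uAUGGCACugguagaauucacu
miR-96-5p: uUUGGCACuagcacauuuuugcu
miR-182-5p: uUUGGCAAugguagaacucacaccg
Counted from 1 at the 5′ end, the seeds of miR-96-5p and miR-182-5p differ by C8A, and those of miR-183-5p and miR-96-5p by A2U, so that miR-96-5p stands 1 base from each of the others. miR-183-5p and miR-182-5p differ in their seeds at 2 positions (A2U and C8A) and at only 4 of the 22 positions compared over their whole length (also U17C and U22A). miR-96-5p is less alike outside the seed, with 13 of 22 positions shared with miR-183-5p and 12 of 23 with miR-182-5p. No other entry of the table carried any of the 3 seeds. The sources used here do not give how the authors assigned a read that matches several entries.

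The 3p strands come from the opposite side of each hairpin and carry unrelated seeds, again in capitals.
miR-183-3p: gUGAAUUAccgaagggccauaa
miR-96-3p: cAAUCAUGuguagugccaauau
miR-182-3p: gUGGUUCUagacuugccaacu
The hairpins are shown to place both arms, which are in capitals here.
mir-183: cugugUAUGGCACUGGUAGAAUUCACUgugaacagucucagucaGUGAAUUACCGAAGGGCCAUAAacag
mir-96: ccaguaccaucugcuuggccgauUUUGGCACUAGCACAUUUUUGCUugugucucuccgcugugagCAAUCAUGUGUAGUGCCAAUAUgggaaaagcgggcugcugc
mir-182: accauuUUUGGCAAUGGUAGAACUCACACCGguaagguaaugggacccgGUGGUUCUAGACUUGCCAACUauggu
Sequences and positions are from RefSeq on GRCm38.p6, and all 6 mature sequences equal those in the deposited table with U for T.

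All hairpins lie on the minus strand of GRCm38: Mir183 at chr6:30169668-30169737, Mir96 at chr6:30169446-30169551 and Mir182 at chr6:30165918-30165992. In the direction of transcription Mir183 comes first, Mir96 follows after 116 bases, and Mir182 after a further 3453 bases. The span of 3820 bases overlaps no other gene of GENCODE M21. The nearest protein coding genes are Nrf1, 12460 bases away, and Ube2h, 41552 bases away.

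**Figure D1:**
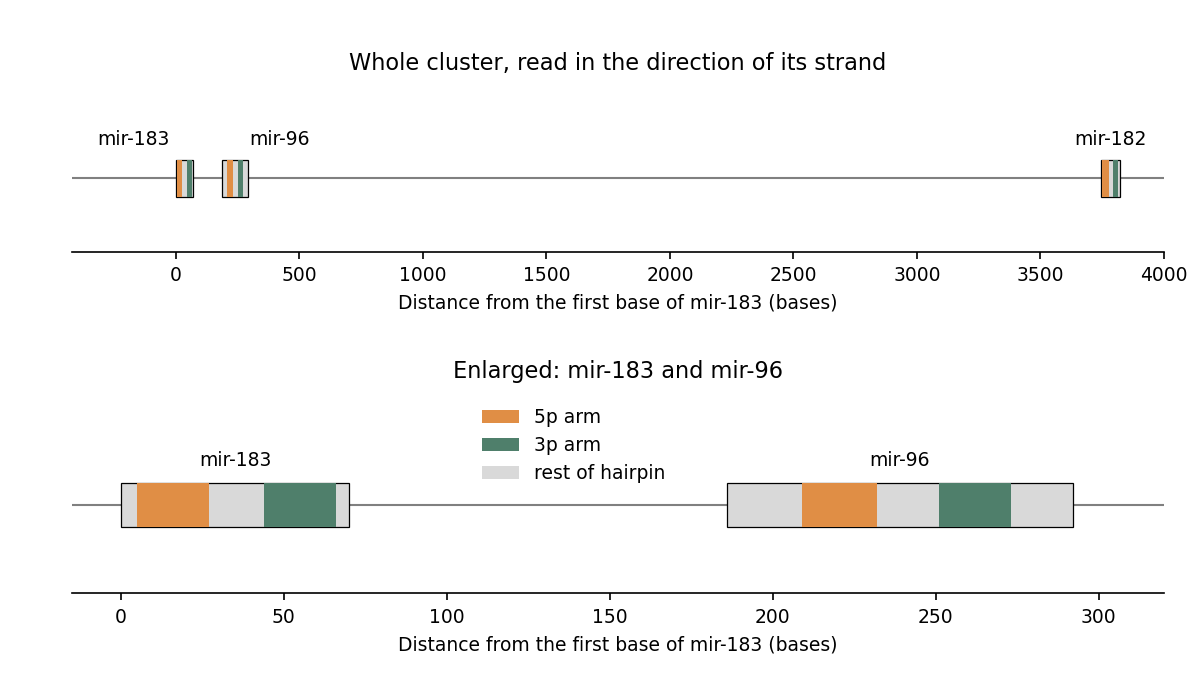
Map of the cluster, with distance in bases from the first base of mir-183 on the x axis and the 5p arms, 3p arms and remaining hairpin bases in separate colours. mir-183 and mir-96 are 116 bases apart, and mir-182 lies 3453 bases beyond mir-96.

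Total miRNA reads were 3206127 to 6601899 in the CRC mice and 8222508 to 15280434 in the healthy mice. Levels are CPM, the read count scaled to a common library size, here after TMM scaling, unless total-scaled CPM is named. TMM gives each mouse a scaling factor, on the assumption that most miRNAs do not differ between mice. In earlier work on these data the profiles of the healthy mouse M3 and the CRC mouse M4 lay near each other. M1 with M2, and M5 with M6, did so too. For that reason results are also given without M3 and M4. The likeness of whole profiles was not measured again here. It does not hold for every member, since miR-182-5p had 396 CPM in M3 and 990 CPM in M4. The 5 smooth muscle miRNAs listed as markers summed to 44574 to 218298 CPM in CRC mice and 190472 to 823628 CPM in healthy mice, the 8 epithelial ones to 87900 to 165340 CPM in CRC mice and 110627 to 218956 CPM in healthy mice. The 4 leukocyte markers summed to 6757 to 8130 CPM in CRC mice and to 3164 CPM (M2), 3804 CPM (M1) and 15242 CPM (M3) in healthy mice. The 3 secretory epithelium markers summed to 1542 to 2500 CPM in CRC mice and 3133 to 3721 CPM in healthy mice. In fibroblast markers (4 miRNAs) the sums were 4596 to 10651 CPM in CRC mice and 6561 to 14075 CPM in healthy mice, and in endothelial markers (2 miRNAs) 9384 to 12684 CPM in CRC mice and 10998 to 13516 CPM in healthy mice. The 3 nerve markers summed to 115 to 175 CPM in CRC mice and 248 to 411 CPM in healthy mice, and the 3 red blood cell markers to 469 to 1843 CPM in CRC mice and 282 to 563 CPM in healthy mice. Such sums hide differences among the members of a list. The endothelial markers, both arms of the same hairpin, had log2 fold changes (CRC over healthy) of -0.19 (miR-126a-3p) and 0.58 (miR-126a-5p). Among the epithelial markers only miR-200c-3p was positive (0.30), and among the nerve markers only miR-9-3p (0.13). No marker was at 0 in any mouse, and the part of the markers in the results below was not tested. In whole tissue, fewer cells of a type and less RNA per cell cannot be told apart.

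The design asks whether the members differ between the colorectum of CRC and healthy mice. None of the 6 passed edgeR's quasi-likelihood test, in which 2.28% of the 878 miRNAs tested were called at an adjusted p of 0.05. All 6 members passed the filter on low counts. Before adjustment 1 member, miR-182-3p, had a p under 0.05, against 23.2% of all tested miRNAs. Under alternative settings of edgeR with all 6 mice 1 to 4 members did so, with 4 on total counts only (22.3% of all miRNAs) and 4 with a GC trend removed (23% of all miRNAs). DESeq2 called 12.7% of all miRNAs and 0 members, and had 1 member at an unadjusted p under 0.05, against 26.7% of all miRNAs. limma-voom called 0% of all miRNAs, so its 0 calls say nothing of the members, and had 2 members at an unadjusted p under 0.05, against 24.6% of all miRNAs. Without M4 edgeR called 19.9% of 1188 miRNAs and 0 members. The 3p strands of all 3 hairpins had higher values in every CRC mouse than in every healthy mouse on the TMM scale, as did 14.1% of all tested miRNAs, while the 5p strands overlapped between the groups. On total-scaled counts this was otherwise for 3 members: miR-96-3p overlapped, and miR-183-5p and miR-96-5p did not.

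miR-183-5p, a miRNA known to repress ezrin, which ties the cell membrane to the cytoskeleton, had 1096 (M4), 481 (M5) and 478 CPM (M6), against 614 (M1), 677 (M2) and 578 CPM (M3). The healthy mice lay close together, with 1 CRC mouse far above them and 2 below. Its mean was 685 ± 356 CPM in CRC mice and 623 ± 50.1 CPM in healthy mice (SD, n = 3 each). The log2 fold change was 0.14 with an SE of 0.44 (edgeR, adjusted p = 0.884). Without M4 the log2 fold change was -0.29.

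miR-96-5p, the member whose seed mutations cause deafness, had 870 (M4), 709 (M5) and 638 CPM (M6), against 293 (M1), 298 (M2) and 660 CPM (M3). M1 and M2 were low and the other 4 mice high, and the groups overlapped through M3 and M6. The mean was 739 ± 118 CPM in CRC mice and 417 ± 211 CPM in healthy mice (SD, n = 3 each). The log2 fold change was 0.83 with an SE of 0.45 (edgeR, adjusted p = 0.297) and a 95% interval from -0.18 to 1.83.

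miR-182-5p, a repressor of FOXO1, had 990 (M4), 324 (M5) and 301 CPM (M6), against 605 (M1), 809 (M2) and 396 CPM (M3). M4 was the highest and M5 and M6 the lowest of all mice, so the spread among the CRC mice exceeded the difference between the groups. The mean was 538 ± 391 CPM in CRC mice and 604 ± 206 CPM in healthy mice (SD, n = 3 each). The log2 fold change was -0.16 with an SE of 0.55 (edgeR, adjusted p = 0.887). On total-scaled counts its log2 fold change was 0.49, the opposite direction, without a call. Without M4 it was -0.86, and without M2 0.26.

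**Figure D2:**
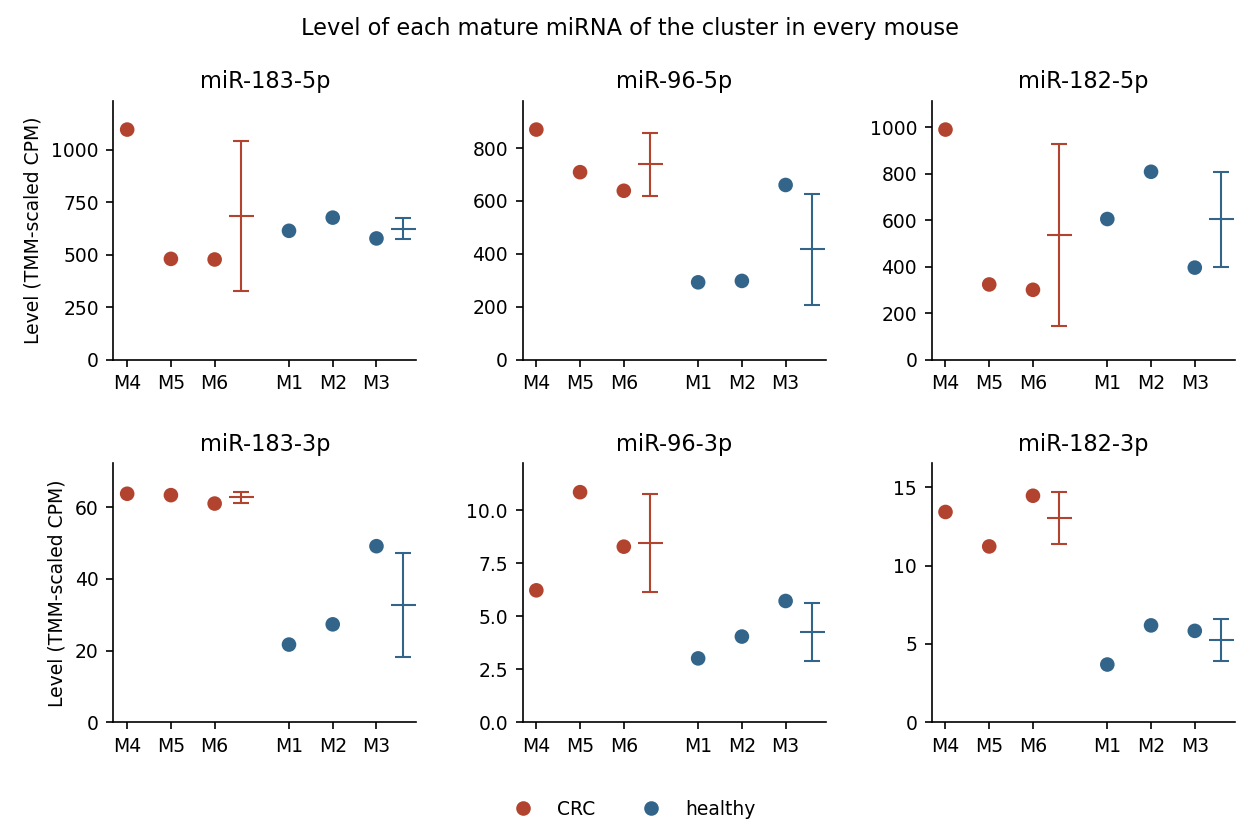
Level of each of the 6 mature miRNAs in TMM-scaled CPM in every mouse, CRC mice left and healthy mice right, with the group mean and SD beside the points (n = 3 each). The 3p strands are separated by group on this scale, miR-96-3p not on total-scaled counts, while the 5p strands overlap on this scale, with M4 at 1096 CPM and M5 and M6 at 481 and 478 CPM for miR-183-5p.

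Among the 3p strands, miR-183-3p had 63.7 (M4), 63.3 (M5) and 61.0 CPM (M6), against 21.7 (M1), 27.3 (M2) and 49.1 CPM (M3). The CRC mice were nearly level, and M3 was the healthy mouse nearest to them. The mean was 62.7 ± 1.48 CPM in CRC mice and 32.7 ± 14.5 CPM in healthy mice (SD, n = 3 each). The log2 fold change was 0.94 with an SE of 0.44 (edgeR, adjusted p = 0.235).

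miR-182-3p had 13.4 (M4), 11.2 (M5) and 14.4 CPM (M6), against 3.69 (M1), 6.18 (M2) and 5.83 CPM (M3). These rest on 62 to 84 reads in the CRC mice and 33 to 55 reads in the healthy mice. The counting interval of M5, the lowest CRC mouse, was 8.60 to 14.4 CPM, and that of M2, the highest healthy mouse, 4.66 to 8.05 CPM (95%, exact Poisson, counting error only). Every CRC mouse was thus above every healthy mouse beyond counting error. The mean was 13.0 ± 1.65 CPM in CRC mice and 5.24 ± 1.35 CPM in healthy mice (SD, n = 3 each). The log2 fold change was 1.31 with an SE of 0.47 (edgeR, adjusted p = 0.135) and an unadjusted p of 0.0196. This was the largest log2 fold change among the 6 members.

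miR-96-3p, the scarcest member, had 6.23 (M4), 10.9 (M5) and 8.29 CPM (M6), against 3.02 (M1), 4.05 (M2) and 5.72 CPM (M3). With 27 to 60 reads per mouse, the intervals of M4 (4.43 to 8.51 CPM) and M3 (4.28 to 7.51 CPM) overlapped, so those mice could not be told apart at this depth. The mean was 8.46 ± 2.32 CPM in CRC mice and 4.26 ± 1.37 CPM in healthy mice (SD, n = 3 each). The log2 fold change was 0.98 with an SE of 0.49 (edgeR, adjusted p = 0.255). On total-scaled counts M4 (5.91 CPM) was below M3 (6.32 CPM).

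Every CRC mouse lay above every healthy mouse for 3 of the 6 members, against 14.1% of all 878 tested miRNAs. These were the 3p strands, on the TMM scale, and for miR-96-3p the counting intervals of M4 and M3 overlapped. Of the 599 miRNAs with a mean under 50 CPM, where the 3p but not the 5p strands fall, 17.2% were so separated. The members come from the same precursor and the same mice, so they are not separate observations, and these shares are no test. The median log2 fold change of the 6 members was 0.88, against -0.032 over all tested miRNAs. Total scaling raised the log2 fold changes of all tested miRNAs by a median of 0.71. On that scale 4 of the 6 members were above in every CRC mouse, among them miR-183-5p and miR-96-5p but not miR-96-3p or miR-182-5p, against 19% of all tested miRNAs.

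Leaving out M3 and M4 left 2 CRC and 2 healthy mice and called all 6 members, in a fit that called 53.2% of 1082 tested miRNAs. These mice were left out because of their profiles in these same data, so the p-values without them, here and for the strand ratios, describe the remaining 4 mice and are no independent test. Of all tested miRNAs 25.8% were called higher and 27.4% lower in that fit, and the members went in both directions, 4 higher and 2 lower. Compared with the fit of all mice, the log2 fold changes of the miRNAs tested in both moved by a median of -0.30. Without M3 and M4 the log2 fold change was -1.47 for miR-182-5p (SE 0.26, adjusted p = 9.03e-05, edgeR) and -0.71 for miR-183-5p (SE 0.24, adjusted p = 0.0194, edgeR). It was 0.90 for miR-96-5p (SE 0.24, adjusted p = 0.00428, edgeR). The 3p strands had 1.06 (miR-183-3p, SE 0.29), 1.14 (miR-96-3p, SE 0.47) and 1.10 (miR-182-3p, SE 0.45), with adjusted p-values of 0.00474, 0.0495 and 0.0483 in edgeR. Under the other alternatives the adjusted p-values of the members lay between 0.0612 (DESeq2, miR-182-3p) and 0.999. Between the mice left out, M4 was above M3 for every member on the TMM scale. The distance was 1.32 log2 units for miR-182-5p and 0.92 for miR-183-5p, but 0.40 for miR-96-5p and 0.12 for miR-96-3p. For miR-96-3p the counting intervals of these mice overlapped, and on total-scaled counts M4 was below M3.

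**Figure D3:**
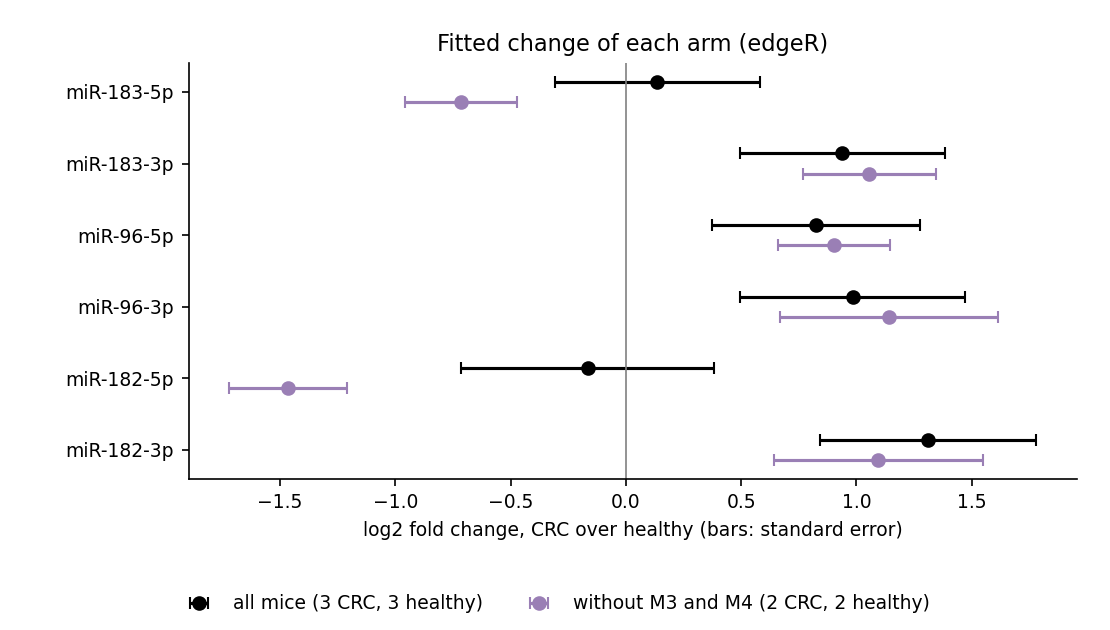
Log2 fold change of each member, CRC over healthy, with its standard error as bars, for all mice and without M3 and M4. The 3p strands and miR-96-5p lie between 0.83 and 1.31 in both fits, whereas miR-182-5p moves from -0.16 with all mice to -1.47 without M3 and M4. Over all miRNAs tested in both fits the median move is -0.30.

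The balance of the strands was read within each hairpin, where library scaling cancels. In mir-182 the 3p strand made up 1.34% of the reads in M4 (95% exact binomial interval 1.07 to 1.65%), 3.35% in M5 (2.57 to 4.27%) and 4.58% in M6 (3.57 to 5.77%). In the healthy mice it made up 0.606% in M1 (0.417 to 0.849%), 0.759% in M2 (0.572 to 0.987%) and 1.45% in M3 (1.09 to 1.89%). M5 and M6 were above all healthy mice beyond counting error, and the intervals of M4 and M3 overlapped. The log2 ratio of 5p to 3p reads was 5.14 ± 0.95 in CRC mice and 6.81 ± 0.66 in healthy mice (SD, n = 3 each), a difference of -1.67 (SE 0.62, adjusted p = 0.261, limma), with an unadjusted p of 0.0267. Without M3 and M4 the difference was -2.57 (adjusted p = 0.0112, limma).

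In mir-183, which kept more of its 3p strand than the other hairpins, that strand made up 5.49% of the reads in M4 (4.98 to 6.04%), 11.6% in M5 (10.5 to 12.8%) and 11.3% in M6 (10.1 to 12.6%). In the healthy mice it made up 3.41% in M1 (2.95 to 3.92%), 3.88% in M2 (3.41 to 4.39%) and 7.83% in M3 (7.15 to 8.56%). M5 and M6 were high, M1 and M2 low, and the groups overlapped because M4 was below M3. The difference in log2 ratio was -1.004 (SE 0.58, adjusted p = 0.492, limma), and -1.78 without M3 and M4 (adjusted p = 0.0244, limma).

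In mir-96 the 3p strand made up 0.711% of the reads in M4 (0.506 to 0.971%), 1.51% in M5 (1.15 to 1.94%) and 1.28% in M6 (0.913 to 1.75%). In the healthy mice it made up 1.02% in M1 (0.674 to 1.48%), 1.34% in M2 (0.940 to 1.85%) and 0.860% in M3 (0.643 to 1.13%). The groups overlapped throughout, with a log2 difference of -0.073 (SE 0.50, adjusted p = 0.931, limma). Over all 234 hairpins tested limma called 0%, and 12% had an unadjusted p under 0.05, as did 1 of the 3 cluster hairpins, mir-182. Without M3 and M4 it called 19.6% of 245 hairpins, and 2 of the 3 in the cluster. Under the other alternatives the adjusted p-values of the cluster hairpins lay between 0.0713 (limma, mir-182 without M4) and 0.991. Over the 126 hairpins with more 5p than 3p reads the median difference was -0.15, and 55.6% of them were negative.

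**Figure D4:**
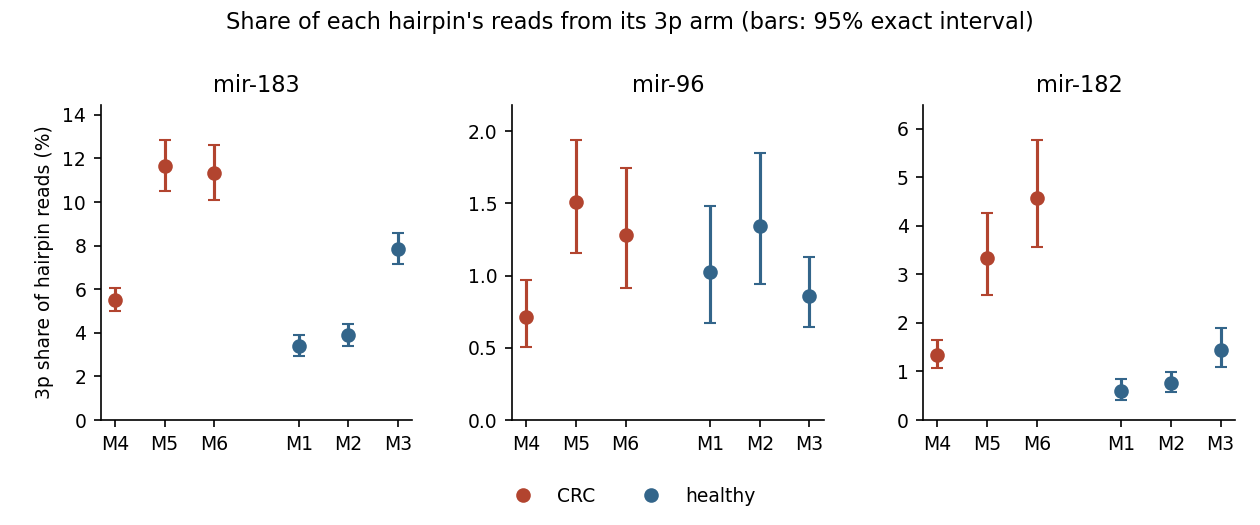
Share of the reads of each hairpin that came from its 3p arm, in percent, for every mouse, with 95% exact binomial intervals that cover counting error only. M5 and M6 have the highest shares in mir-183 (11.6% and 11.3%) and mir-182 (3.35% and 4.58%), and mir-96 shows no such order.

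The make-up of the cluster was compared through the 5p strands, as shares of their summed reads. A read covers a whole mature strand, so no length scaling was made. Reads from an amplified library are not independent molecules, and how well each sequence is captured was not measured. miR-96-5p made up 29.4% of the 5p reads in M4, 46.8% in M5 and 45.1% in M6, against 19.4% in M1, 16.7% in M2 and 40.4% in M3. miR-182-5p made up 33.5% in M4, 21.4% in M5 and 21.2% in M6, against 40.0% in M1, 45.3% in M2 and 24.3% in M3. miR-183-5p varied least, from 31.8% in M5 to 37.1% in M4, against 35.4% in M3 to 40.6% in M1. The widest 95% exact interval of these shares reached 1.20 percentage points to either side, for counting error only. M5, M6 and M3 thus had most miR-96-5p and least miR-182-5p, M1 and M2 the reverse, and M4 lay between.

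The order of the levels followed. In M5, M6 and M3 it was miR-96-5p, miR-183-5p, miR-182-5p from high to low, in M4 and M1 miR-183-5p, miR-182-5p, miR-96-5p, and in M2 miR-182-5p, miR-183-5p, miR-96-5p. In M1 the first 2 could not be told apart, with 598 to 631 CPM for miR-183-5p and 589 to 622 CPM for miR-182-5p (95%, exact Poisson).

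The log2 ratio of miR-182-5p to miR-96-5p was 0.19 in M4, -1.13 in M5 and -1.09 in M6, against 1.05 in M1, 1.44 in M2 and -0.74 in M3. Its mean was -0.68 ± 0.75 in CRC mice and 0.58 ± 1.16 in healthy mice (SD, n = 3 each), a difference of -1.26 (p = 0.200, exact permutation test, two-sided). The ratio of miR-96-5p to miR-183-5p differed by 0.90 (p = 0.200, exact permutation test), with a mean of 0.22 ± 0.48 in CRC mice and -0.69 ± 0.76 in healthy mice (SD, n = 3 each). The ratio of miR-182-5p to miR-183-5p, the pair most alike in sequence, differed by -0.36 (p = 0.200, exact permutation test), with -0.46 ± 0.28 in CRC mice and -0.10 ± 0.41 in healthy mice (SD, n = 3 each). Adjusted over the 3 ratios each exact p stayed at 0.200, and 3 mice against 3 cannot go below 0.1. Any of the 3 log2 ratios follows from the others, so they are not 3 separate results. None of the ratios separated the groups. The smooth muscle markers also ran unevenly within the groups, with 218298 (M4), 45564 (M5) and 44574 CPM (M6), against 576363 (M1), 823628 (M2) and 190472 CPM (M3). Their part in the make-up of the cluster was not tested.

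**Figure D5:**
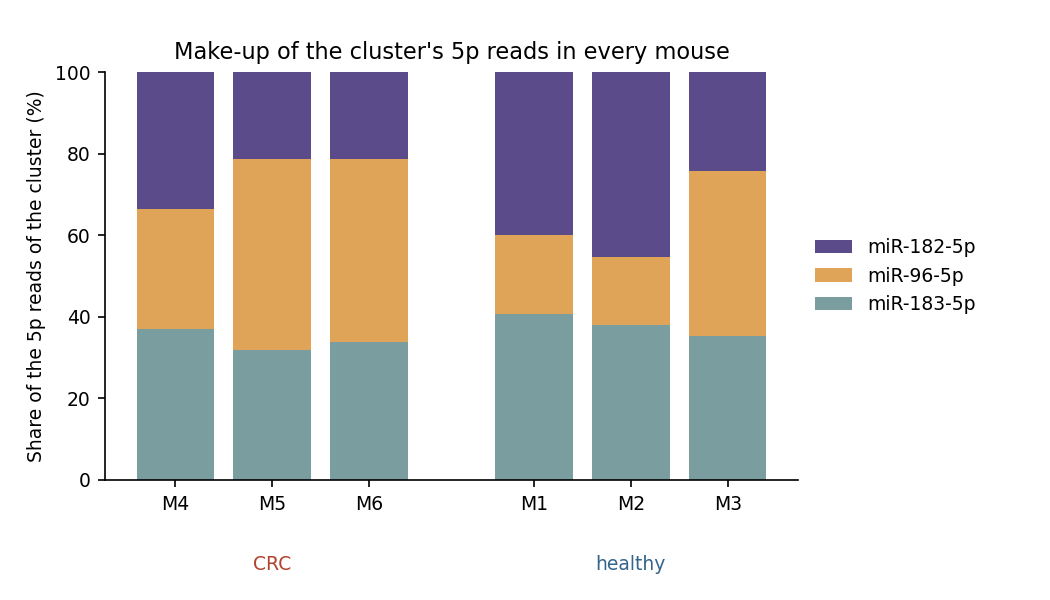
Share of each 5p strand in the summed 5p reads of the cluster, in percent, for every mouse. miR-96-5p takes 46.8% and 45.1% in M5 and M6 and 40.4% in the healthy mouse M3, against 19.4% and 16.7% in M1 and M2.

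Summed over its 6 entries, the cluster had 3039 (M4), 1599 (M5) and 1501 CPM (M6), against 1541 (M1), 1821 (M2) and 1695 CPM (M3). Only M4 stood above the healthy mice on this scale. As a share of all miRNA reads the cluster made up 0.288% in M4, 0.248% in M5 and 0.220% in M6, against 0.111% in M1, 0.106% in M2 and 0.187% in M3, with 95% exact intervals of at most 0.00518 percentage points to either side. On that scale every CRC mouse was above every healthy mouse, as was so for 19% of all tested miRNAs taken singly. Total scaling raised the log2 fold changes of all tested miRNAs by a median of 0.71. Set against the reads of the 8 epithelial miRNAs, the 5p reads of the cluster came to 1.79% in M4, 1.72% in M5 and 1.19% in M6, against 0.768% in M1, 0.815% in M2 and 1.48% in M3. M6 fell below M3, so these groups overlapped, at 1.57 ± 0.33% in CRC mice and 1.02 ± 0.40% in healthy mice (SD, n = 3 each). No test was made of these sums.

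The 5p strands did not run in parallel across the mice. Likeness was taken as the root-mean-square difference of log2(CPM + 0.5) over the 6 mice, each miRNA first centred on its own mean. It was 0.33 log2 units between miR-183-5p and miR-182-5p, 0.69 between miR-183-5p and miR-96-5p, and 1.01 between miR-96-5p and miR-182-5p. Of 276 other miRNAs with a mean of at least 50 CPM, 30 were nearer to miR-183-5p than miR-182-5p was, and 164 nearer than miR-96-5p was. The 5 nearest to the mean profile of the 5p strands were miR-181d-5p (0.16 log2 units), miR-744-5p (0.21), let-7b-5p (0.22), miR-423-5p (0.23) and miR-20a-3p (0.23). That mean profile was highest in M4, so the peak these miRNAs shared with it there follows from how they were chosen. Because the strands differed, the mean profile stands for no single strand, and each strand had its own nearest miRNA. These were miR-744-5p for miR-183-5p (0.19 log2 units), miR-5112 for miR-96-5p (0.14) and miR-214-3p for miR-182-5p (0.17). miR-181d-5p had 310 CPM in M4, against 136 CPM in M5, 127 CPM in M6 and 123 to 138 CPM in the healthy mice.

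Of 8 other miRNA genes within 2 Mb of the cluster on chromosome 6, 4 had entries in the table, with 6 arms tested. None was called by edgeR or had an unadjusted p under 0.05. For 3 of them the log2 fold change was negative, -0.14 (SE 0.35) for miR-29a-3p, a repressor of collagens, -0.47 (SE 0.41) for miR-335-5p and -0.92 (SE 0.55) for miR-129-1-3p. It was positive for the other 3, 0.28 (SE 0.42) for miR-29a-5p, 0.26 (SE 0.53) for miR-335-3p and 0.15 (SE 0.54) for miR-29b-1-5p.

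Of 18 miRNAs known, like the cluster, for higher levels in colorectal cancer, all were tested and edgeR called 0 in either direction, against 2.28% of all tested miRNAs. At an unadjusted p under 0.05 there were 2 with higher values, miR-31-5p and miR-106b-5p (log2 fold change 1.02, SE 0.44), and 1 with a lower value, miR-503-5p (-1.40, SE 0.57), named here after their values were seen. These 3 of 18 stand beside 23.2% of all tested miRNAs. Positive values were found for 15 of the 18, with a median log2 fold change of 0.42, against 48.5% positive and a median of -0.032 over all tested miRNAs. The list was chosen with earlier results of these data known, so these values are no independent test. Several of its miRNAs share a cluster, such as miR-17-92, so the 18 are not separate observations. The most abundant were miR-21a-5p, induced in inflamed and cancerous tissue, with 0.23 (SE 0.29), miR-19b-3p of the growth-promoting miR-17-92 cluster with -0.46 (SE 0.36), miR-31-5p with 3.22 (SE 1.27) and miR-19a-3p with 0.60 (SE 0.43).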

How the data were processed

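Small RNA of the colorectum was sequenced on an Ion Proton, per the labels' protocols. Per the submitters' processing notes, alignment used BWA and the build mm10 (GRCm38). What the authors deposited are whole-number read counts, not normalized, for 1915 mature miRNAs, per the file headers. The sources used here do not give how strand and reads matching several entries were handled. Mice are separate animals.

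The test of levels was edgeR 4.0.16 (R 4.3.3; TMM, filterByExpr by group, robust dispersions, glmQLFit and glmQLFTest, two-sided) on the whole table, with Benjamini-Hochberg adjustment over the 878 miRNAs kept. A standard error is the size of the log2 fold change divided by the square root of F. Strand ratios were tested with limma 3.58.1 (trend, robust) on log2 ratios of counts plus 0.5, where each arm of a hairpin averaged at least 10 counts. DESeq2 1.42.0 and limma-voom were other tools. The scripts were tested on simulated data. A count of 0 allows 0.196 to 0.936 total-scaled CPM, and no member was at 0.

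The members, lists and alternatives were chosen with earlier results of these data known. Named miRNAs are the members, the 5 nearest to the mean 5p profile, the nearest to each 5p strand, neighbours within 2 Mb and the most abundant of the listed miRNAs. Some markers were named after their values were seen. Alternatives were other scalings, filters and tools, GC-trend removal, thinning, leaving out each mouse, and leaving out M3 with M4. For the summed level that last one was added after seeing the data.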

Additional observations from a re-analysis of the deposited data

How the results depend on the processing

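No alternative with all 6 mice, or with 1 mouse left out, called a member. For several of these that says nothing of the members, since 0 miRNAs at all were called in limma-voom, with the filter at 50 CPM, when thinned, and without M1, M5 or M6. Without M4, 237 miRNAs (19.9%) and 0 members were called. Members at an unadjusted p under 0.05 numbered 4 with total counts only, with the GC trend removed and without M3 (339 of 1068 miRNAs), and 3 when thinned (140 of 681). Leaving out M3 and M4, a choice made from the profiles themselves, called 576 miRNAs (53.2%) and 6 members, with log2 fold changes of -0.71 for miR-183-5p (the reverse of 0.14), -1.47 for miR-182-5p, 0.90 for miR-96-5p, 1.06 for miR-183-3p, 1.14 for miR-96-3p and 1.10 for miR-182-3p. It also called the strand ratios of mir-183 (-1.78) and mir-182 (-2.57). miR-182-5p turned to 0.49 with total counts only and to 0.063 with profiles thinned to 3206127 reads. Over all miRNAs tested in both fits, the log2 fold changes moved by a median of 0.71 with total counts only and 0.27 when thinned. The cause of the turn was not tested. Leaving out 1 mouse gave ranges of -0.29 to 0.36 for miR-183-5p, -0.86 to 0.26 for miR-182-5p, 0.64 to 1.25 for miR-96-5p, 0.73 to 1.27 for miR-183-3p, 0.78 to 1.24 for miR-96-3p and 1.13 to 1.55 for miR-182-3p. For strand ratios the ranges were -1.39 to -0.76 (mir-183), -0.40 to 0.15 (mir-96) and -2.20 to -1.29 (mir-182). The ratios between 5p strands kept their directions in every alternative run on them, from -2.35 to -0.83 for miR-182-5p over miR-96-5p. The summed level differed by 0.21 log2 units, by 0.95 with total counts only and by -0.12 to 0.39 with 1 mouse left out. The filter at 50 CPM removed miR-96-3p and miR-182-3p, and the strand minimum of 50 counts removed mir-96, so these have no value there. Over all miRNAs the number of calls, 20 in edgeR, was 111 in DESeq2 and 0 in limma-voom. No paired analysis was possible because the labels give the mice of the groups no shared numbers. Depth limits the 3p strands of mir-96 and mir-182, with at most 84 reads per mouse.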
